A study of Arabidopsis thaliana with 4 samples.

Results

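SWEET genes encode small membrane carriers that let sugars run down their concentration gradient into or out of a cell or vacuole. The 10 genes considered here are SWEET1, SWEET2, SWEET4, SWEET10 to SWEET14, SWEET16 and SWEET17 of Arabidopsis thaliana. They were chosen with earlier results of these data known, so they are not an unselected list. They were found on the array through the platform annotation, which gave 9 of the 10 a probe set mapped to that gene alone, out of 13286 loci named in this way. SWEET12 has no listing of that kind and is not analysed here. The question asked was how these genes differ between axillary shoots after decapitation and axillary buds before it, and whether the plasma membrane sucrose exporters SWEET10 to SWEET14 stand apart from the other members.

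RNA came from axillary shoots of Col-0, a standard laboratory accession, taken 24 h after removal of the main shoot apex (2 arrays), and from axillary buds taken before it (2 arrays). Plants were kept in continuous light in a potting mix, and no mutant, transgene or other treatment was used. Signals were read on ATH1 GeneChips, short-oligonucleotide arrays, and are given in the units of MAS5, a method that summarises each set of probes into 1 signal. Whether both arrays of a group stand for separate plants is not given, so p-values reflect only how far these samples differ, and that spread may be technical.

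In plants, sucrose made in leaves is released from phloem parenchyma by SWEET carriers of the plasma membrane, passes into the cell wall space and is then pumped into the sieve element and companion cell complex by proton-coupled sucrose carriers. Sink organs such as growing buds take up sucrose or the hexoses made from it, and other SWEET carriers in the vacuolar membrane move stored sugar between vacuole and cytosol. Sequence groups the family into clades: SWEET1 and SWEET2 lie in clade I and SWEET4 in clade II, which mostly move hexoses. SWEET10 to SWEET14 lie in clade III, whose members mostly move sucrose, and SWEET16 and SWEET17 lie in clade IV, in the vacuolar membrane.

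The 4 arrays were close in overall signal and differed in RNA control ratios. Median signals were 40.9 and 40.6 in shoots and 46.3 and 43.6 in buds. The signal of a 3' control probe set divided by that of the 5' one is a sign of RNA quality or labelling. For actin this ratio was 2.13 and 3.19 in shoots and 5.81 and 6.67 in buds. An older actin pair gave 0.990 and 1.14 in shoots and 1.66 and 1.38 in buds. GAPDH gave 0.714 and 0.601 in shoots and 1.51 and 0.812 in buds. Ubiquitin gave 0.966 and 0.973 in shoots and 1.04 and 1.02 in buds. The groups did not overlap in any of these ratios, and the size of the gap depended on the control. The part of RNA quality or labelling in any result below was not tested. Buds of intact plants at the later time were not sampled, so decapitation, further age and tissue make-up cannot be told apart. Since tissue was taken whole, fewer cells of a type and less RNA per cell cannot be told apart either. Of 13648 probe sets bright enough to be tested, 45.9% of the calls were higher in shoots, or 61.1% after array medians were set equal, a step that moved the median log2 fold change of all of them to 0.08, against −0.06 as deposited.

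Among the 7 SWEET genes bright enough to be tested, SWEET17 rose in the shoots, SWEET11 and SWEET13 fell, and SWEET1, SWEET2, SWEET4 and SWEET16 did not pass the threshold (limma, adjusted p of 0.05 over all tested probe sets). Across the array as a whole, 10.2% of tested probe sets were called higher and 12.0% lower. The median log2 fold change of the 7 genes was −0.62, beside −0.06 for all tested probe sets. Over the 9 members measured, dim ones included, the median was also −0.06. In 6 of the 7 the shoot and bud signals did not overlap, which was also true of 65.2% of all tested probe sets. With 7 genes these shares give no statement about the family as a whole. SWEET10 and SWEET14 were below the level tested, which was a geometric mean signal of 23.1 over the 4 arrays.

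**Figure D1:**
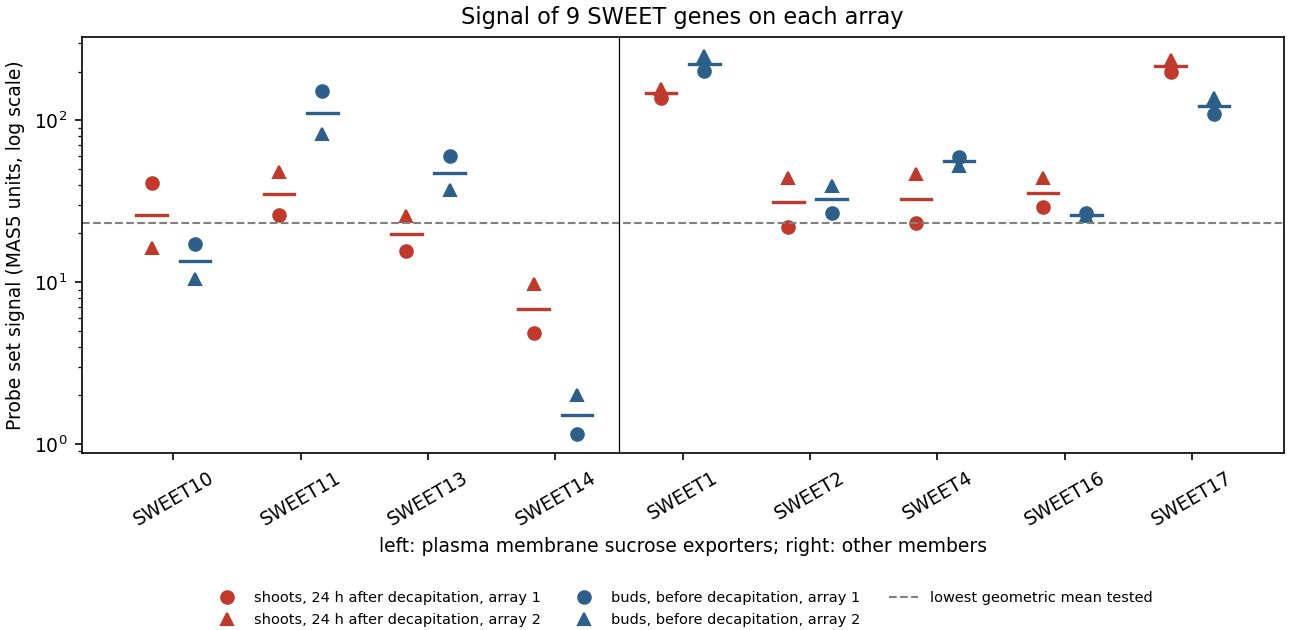
Probe set signal (MAS5 units, log axis) of the 9 SWEET genes measured, with exporters on the left and the other members on the right; red symbols are shoots, blue symbols buds, circles array 1, triangles array 2, and short lines geometric means. SWEET11 and SWEET13 lie lower on both shoot arrays, SWEET17 lies higher, and the dashed line marks the lowest geometric mean tested, 23.1.

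SWEET11, a plasma membrane sucrose exporter known from phloem parenchyma of leaves, had the largest decrease among the tested members. Its signal was 25.9 and 47.7 in shoots, against 151 and 82.1 in buds. The groups did not overlap, although each pair of arrays differed widely within its group. The fitted level was 3.16-fold lower in shoots (log2 fold change −1.66, 95% interval −2.53 to −0.80, limma adjusted p = 0.0190). Leaving out bud array 1 gave −1.22 (adjusted p = 0.0594) and leaving out shoot array 1 also gave −1.22 (adjusted p = 0.106), so the call was lost in both cases. Without bud array 2 or shoot array 2 the log2 fold change was −2.10, with adjusted p values of 0.00426 and 0.0129.

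SWEET13, a related sucrose carrier that also moves gibberellins, fell in the shoots as well. It had 15.6 and 25.5 in shoots and 60.2 and 37.0 in buds. Both shoot signals lay below both bud signals, and shoot array 1 lay below 23.1. The mean signal was 20.5 in shoots and 48.6 in buds, so SWEET13 reached the level tested only through its bud signals. The fold was 2.37 lower in shoots (log2 fold change −1.24, 95% interval −2.08 to −0.41, limma adjusted p = 0.0430). This call was lost without bud array 1 (−0.89, adjusted p = 0.182), without shoot array 1 (−0.89, adjusted p = 0.232), with quantile normalization (−1.07, adjusted p = 0.0601) and with no filter on dim probe sets (adjusted p = 0.0815).

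SWEET11 and SWEET13 varied alike from array to array: bud array 1 was the highest and shoot array 1 the lowest for both. Within an array, the log2 signal of SWEET13 minus that of SWEET11 was −0.74 and −0.91 in shoots and −1.33 and −1.15 in buds. The groups did not overlap in this difference, which was 0.42 higher in shoots, so the fold decrease of SWEET13 was smaller than that of SWEET11. Probe sequences were not used here, so signal shared between close relatives such as SWEET11 and SWEET12, or SWEET13 and SWEET14, was not tested.

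The remaining measured exporters were dim, and their positive fold changes did not pass. SWEET10, a clade III carrier known from the shoot apex at the floral transition, had 40.8 and 16.4 in shoots and 17.2 and 10.5 in buds, and its groups overlapped. Its mean signal was 28.6 in shoots and 13.9 in buds, so its bud signals kept it out of the test. Fitted without a filter on dim probe sets, its log2 fold change was 0.94, with a 95% interval of −0.27 to 2.15 (adjusted p = 0.308). SWEET14, known with SWEET13 from anthers and gibberellin transport, had 4.83 and 9.72 in shoots and 1.15 and 2.00 in buds. All 4 of these signals were far below 23.1, and no detection call was used, so the log2 fold change of 2.18 in the same fit (95% interval 0.36 to 3.99, adjusted p = 0.125) has no firm size. SWEET10 and SWEET13 are next to each other on chromosome 5 with no protein-coding gene between them in the TAIR10.1 gene set.

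SWEET17, a fructose carrier of the vacuolar membrane, was the 1 member called higher in the shoots. Its signal was 200.2 and 236 in shoots, against 110 and 137 in buds. The groups did not overlap, and each pair of arrays lay close together. It rose 1.78-fold (log2 fold change 0.83, 95% interval 0.34 to 1.32, limma adjusted p = 0.0291). Left-out arrays moved this to between 0.67 and 0.99, and the call was lost without bud array 1 (adjusted p = 0.114), shoot array 1 (adjusted p = 0.0909) or shoot array 2 (adjusted p = 0.124).

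SWEET16, the other clade IV member, which moves glucose, fructose and sucrose, had 29.2 and 43.8 in shoots and 26.6 and 25.5 in buds. Both shoot signals were above both bud signals, and the gap between the shoot arrays was larger than the gap between the groups. The log2 fold change was 0.46 with a 95% interval of −0.25 to 1.16 (limma adjusted p = 0.316). The difference in log2 signal between SWEET17 and SWEET16 was 2.78 and 2.43 in shoots and 2.04 and 2.42 in buds, and the lower shoot value exceeded the higher bud value by far less than the gap between arrays of 1 group.

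**Figure D2:**
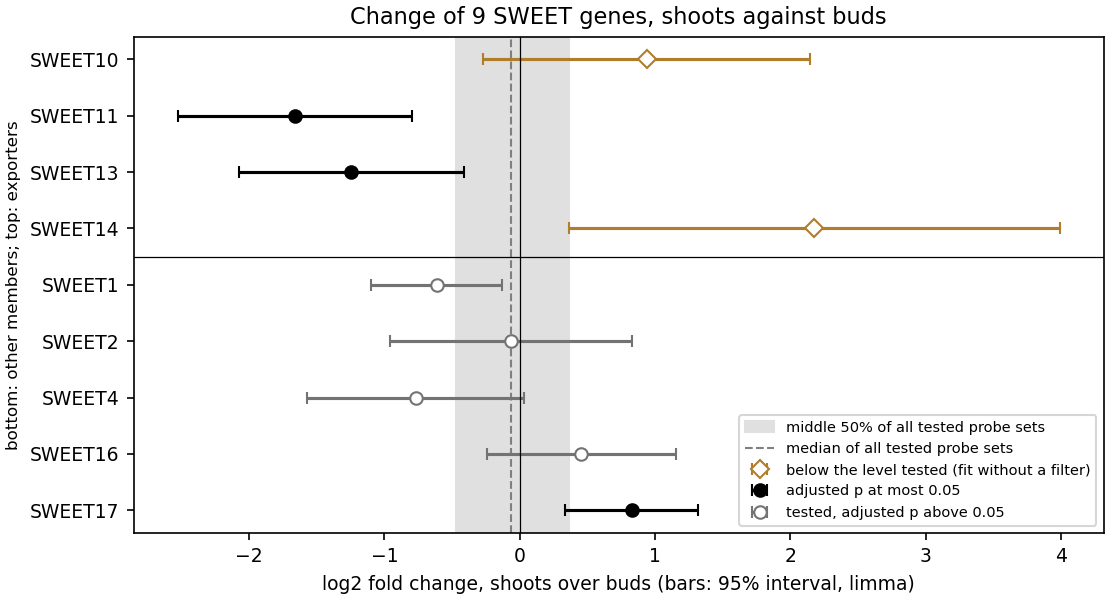
Log2 fold change of shoots over buds for the 9 SWEET genes measured, with 95% intervals from limma; filled circles passed the threshold, open circles did not, and open diamonds are the 2 genes below the level tested, from the fit without a filter. SWEET11 (−1.66) and SWEET13 (−1.24) lie left of the grey band that holds the middle 50% of all tested probe sets, and SWEET17 (0.83) lies right of it.

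The clade I and clade II members did not pass the test. SWEET1, a glucose carrier of the plasma membrane, had 138 and 156 in shoots and 201 and 251 in buds. Its groups did not overlap, its log2 fold change was −0.62 (95% interval −1.10 to −0.13), and its adjusted p was 0.0696 (limma). SWEET4, a hexose carrier of the plasma membrane, had 23.1 and 46.3 in shoots and 59.6 and 52.1 in buds. Shoot array 1 was far lower than the other 3 arrays, and the log2 fold change of −0.77 (95% interval −1.57 to 0.03, limma adjusted p = 0.149) was −0.27 without that array and −1.27 without shoot array 2, where it passed (adjusted p = 0.0422). SWEET2, known as a vacuolar glucose carrier of roots, had 21.8 and 44.3 in shoots and 26.9 and 39.3 in buds, with overlapping groups. Its log2 fold change was −0.06, with a 95% interval of −0.96 to 0.83 that spans a change of nearly 2-fold in either direction (limma adjusted p = 0.923).

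Of the 5 exporters listed, 4 were measured and 2 tested. Those 2 fell, with a median log2 fold change of −1.45, while the median over all 4 measured was −0.15, with positive values for SWEET10 and SWEET14, neither of which was tested in the same fit or passed in the fit without a filter. Of the 5 other members, all of them tested, 1 rose and 0 fell, while 4 missed the threshold. Their median was −0.06, equal to that of all tested probe sets. Over all tested probe sets, 10.2% were called higher and 12.0% lower. The filter kept SWEET13 through its bud signals and left out SWEET10 and SWEET14, so medians of tested genes do not compare the classes evenly. No test between the classes was made, as genes are not replicates.

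The ratio of 2 members on the same array does not depend on how whole arrays were scaled. Levels of different probe sets cannot be compared, so such a ratio is read here only for its difference between groups, which shows unequal change. The log2 signal of SWEET17 minus that of SWEET11 was 2.95 and 2.31 in shoots and −0.46 and 0.74 in buds, a shift of 2.49 or 5.62-fold. SWEET17 minus SWEET1 was 0.54 and 0.60 in shoots and −0.87 and −0.88 in buds. This shift of 1.44 had the closest agreement between arrays of 1 group among all pairs with SWEET17, although SWEET1 alone did not pass the test. SWEET17 minus SWEET13 was 3.69 and 3.21 in shoots, against 0.87 and 1.89 in buds, a shift of 2.07. An exact permutation test of a ratio cannot give a two-sided p below 0.333 with these arrays, and no test of the ratios was made.

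**Figure D3:**
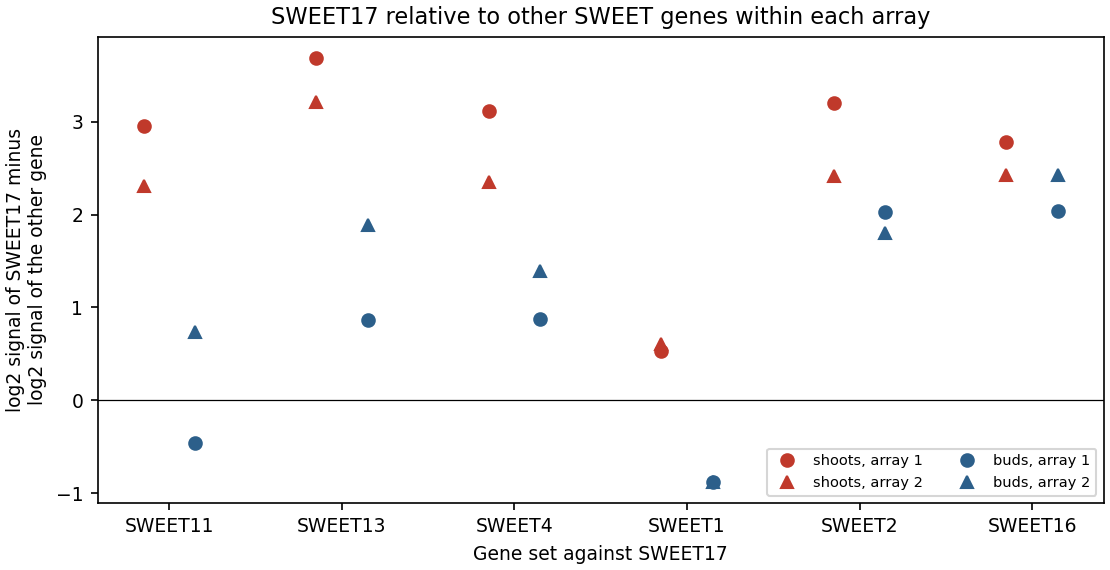
Log2 signal of SWEET17 minus that of each other tested SWEET gene on the same array, with shoots in red on the left of each pair and buds in blue on the right. SWEET17 had the highest log2 fold change of the tested members, so every shift is positive by construction. Both shoot arrays lie above both bud arrays for every gene shown, with a shift from 0.37 for SWEET16 to 2.49 for SWEET11. For SWEET16 the margin was very small, with a lower shoot value of 2.43 and a higher bud value of 2.42. Groups did not overlap in 18 of all 21 pairs of tested members. These pairs share genes, so they are not separate observations. The share among pairs of other tested probe sets was not determined, so the count does not set the SWEET genes apart.

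The members shared a gap between the shoot arrays. All 7 tested members, and 8 of the 9 measured, were higher on shoot array 2 than on shoot array 1, whereas 43.8% of all tested probe sets were. In buds, 3 of the 7 were higher on array 2, beside 47.4% of all tested probe sets. The exception in shoots was SWEET10. Leaving out the higher shoot array lowers the shoot mean by arithmetic, so the decreases of SWEET11, SWEET13 and SWEET4 were larger without shoot array 2. By the same step the log2 fold change went from 0.46 to 0.16 for SWEET16 and from 0.83 to 0.71 for SWEET17.

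The 7 SWEET genes outside the list were at low signal on every array. SWEET3, SWEET5, SWEET6, SWEET7, SWEET8, SWEET9 and SWEET15 ranged from 3.43 to 16.5 in shoots and from 7.52 to 15.2 in buds. All were below the level tested. They include SWEET9, known from nectaries, SWEET5 and SWEET8, known from pollen, and SWEET15, known from senescing leaves and seeds. SWEET3 had 8.11 and 8.07 in shoots and 14.7 and 15.2 in buds, with a log2 fold change of −0.89, and SWEET7 had 7.03 and 3.43 in shoots and 14.7 and 10.2 in buds. SWEET15 had 15.3 and 16.5 in shoots and 13.8 and 10.9 in buds. The groups of these 3 genes out of 7 did not overlap. The share of 65.2% holds for probe sets above the level tested, and that of dimmer ones was not determined, so no like share stands beside this count. At such signals the sizes are uncertain.

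Other genes of sugar transport and sucrose metabolism were covered only in part by the annotation. Of 89 loci in 7 lists, 15 had a probe set of their own and 9 were tested. Of these 9, 0 rose and 1 fell (limma), beside 10.2% called higher and 12.0% lower among all tested probe sets. An unadjusted p below 0.05 was found for 3 of 9, beside 37.3% of all tested probe sets. The median log2 fold change of the 9 was −0.37, beside −0.06 for all tested probe sets. None of the listed proton-coupled sucrose carriers, sucrose synthases or trehalose phosphate genes was measured through a probe set of its own, so the partners of SWEET11 in phloem loading are not analysed here. The locus that fell was AT5G61520, from the list of hexose carriers. It had 84.4 and 93.4 in shoots and 158 and 179 in buds, or 1.89-fold less in shoots (log2 fold change −0.92, limma adjusted p = 0.0176), a call that was lost when bud array 2 (adjusted p = 0.0524) or shoot array 1 (adjusted p = 0.109) was left out.

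Of the vacuolar and other monosaccharide carriers, 5 were tested and 0 passed (limma), beside 10.2% called higher and 12.0% lower among all tested probe sets. At an unadjusted p below 0.05 were 2 of the 5, beside 37.3% of all tested probe sets. TMT2, which encodes a carrier that loads sugar into the vacuole, had the largest change of these 5 carriers. It had 174 and 186 in shoots and 357 and 241 in buds. Its log2 fold change was −0.71 (95% interval −1.25 to −0.17, limma adjusted p = 0.0649), and it was −0.42 without bud array 1 (adjusted p = 0.299) and −0.99 without bud array 2, where it passed (adjusted p = 0.0227). Its relative TMT1 had 219 and 253 in shoots and 336 and 310 in buds, with a log2 fold change of −0.45 (limma adjusted p = 0.132). A further relative, TMT3, was below the level tested and had 17.2 and 20.3 in shoots and 12.8 and 7.11 in buds. AT5G17010, from the same list, had a log2 fold change of 0.33 and did not pass. The log2 fold changes were 0.56 for AT1G62660 (limma adjusted p = 0.324), the 1 tested locus of the invertase list, and −0.28 for AT2G35840 (limma adjusted p = 0.370), that of the sucrose phosphate synthase and phosphatase list. With 1 shoot array left out, AT1G62660 had 0.020 (without array 2) and 1.09 (without array 1), and AT2G35840 had −0.45 and −0.11.

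**Figure D4:**
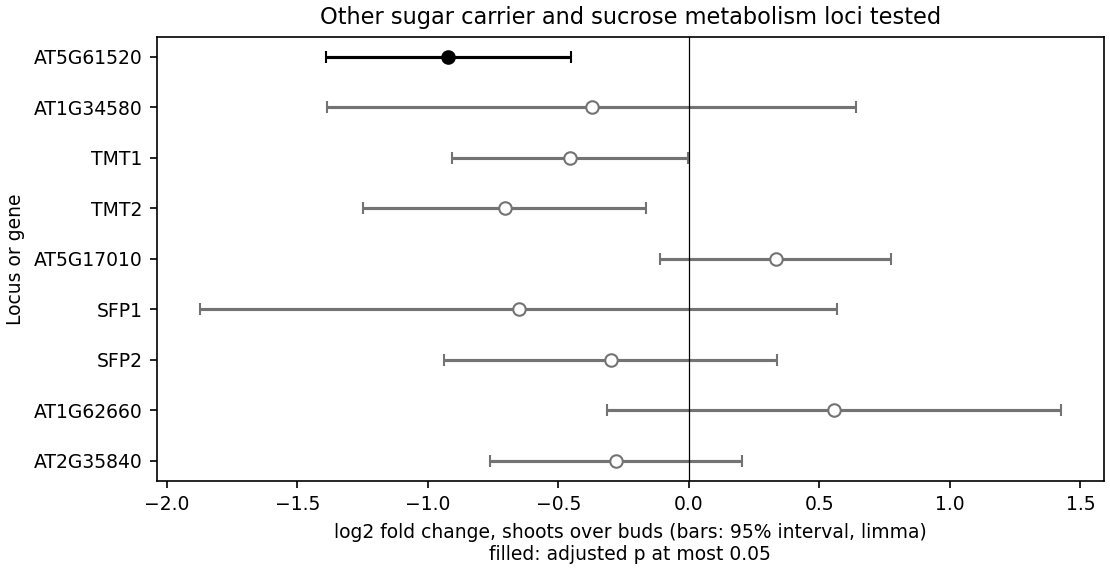
Log2 fold change of shoots over buds with 95% limma intervals for the 9 tested loci of the other sugar lists. AT5G61520 (−0.92, filled) passed the threshold, and the other 8 (open) did not.

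Markers of the tissues in which SWEET genes act were few. Of 10 phloem markers, 3 were measured and 0 passed (limma), beside 10.2% called higher and 12.0% lower among all tested probe sets. At an unadjusted p below 0.05 was 1 of the 3, beside 37.3% of all tested probe sets. This was OPS, a gene of protophloem differentiation, with 54.8 and 33.5 in shoots and 23.1 and 24.7 in buds. CLE41 and CLE44, peptide genes expressed in phloem, had log2 fold changes of 0.25 and 0.08. The summed signal of these 3 markers was 430 and 376 in shoots and 351 and 315 in buds. Most of it came from CLE41, which had 298 and 275 in shoots and 259 and 223 in buds. In a list of 6 green tissue genes the sum was 4597 and 4878 in shoots and 4766 and 4290 in buds. Of the 6, 1 fell, LHCB4.3 (log2 fold change −0.96, limma adjusted p = 0.0310), beside 12.0% of all tested probe sets. The other 5 did not pass, with log2 fold changes from −0.11 for PSBW to 0.57 for LHCB4.1. Of the xylem and secondary wall genes, 3 were measured, with sums of 55.1 and 78.8 in shoots and 58.1 and 90.3 in buds. The 1 of them that was tested, GUT2 (IRX10), had a log2 fold change of −0.49 (limma adjusted p = 0.223). Of the 9 meristem and axil markers, 2 were measured: CLV3 had 4.39 and 1.22 in shoots and 1.06 and 7.32 in buds, and LAS had 19.6 and 16.1 in shoots and 15.4 and 16.7 in buds. The meristem gene UFO had 5.72 and 0.932 in shoots and 7.64 and 1.29 in buds. Lists of other xylem, green tissue, epidermis and flower markers held no gene with a probe set of its own, and the part of tissue make-up in the SWEET values was not tested.

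For each SWEET gene that passed, the 3 named probe sets with the most similar pattern were found among 7356 named and tested ones, by the Euclidean distance between log2 signals centred on their own mean over the 4 arrays. With 4 arrays many genes must look alike, and likeness here is a description. Nearest to SWEET11 were AT1G67870 (distance 0.205), AT1G26800 (0.319) and AT2G28400 (0.324). AT1G67870 had 49.1 and 90.7 in shoots and 331 and 149 in buds. Nearest to SWEET13 were AT3G51940 (0.0874), AT5G05750 (0.174) and AT1G51430 (0.192), of which AT3G51940 had 17.3 and 29.4 in shoots and 64.3 and 39.9 in buds. Nearest to SWEET17 were MAP1C (0.0548), which encodes a methionine aminopeptidase, AT2G42770 (0.0747) and AT1G28600 (0.0756). MAP1C had 482 and 553 in shoots and 263 and 315 in buds.

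**Figure D5:**
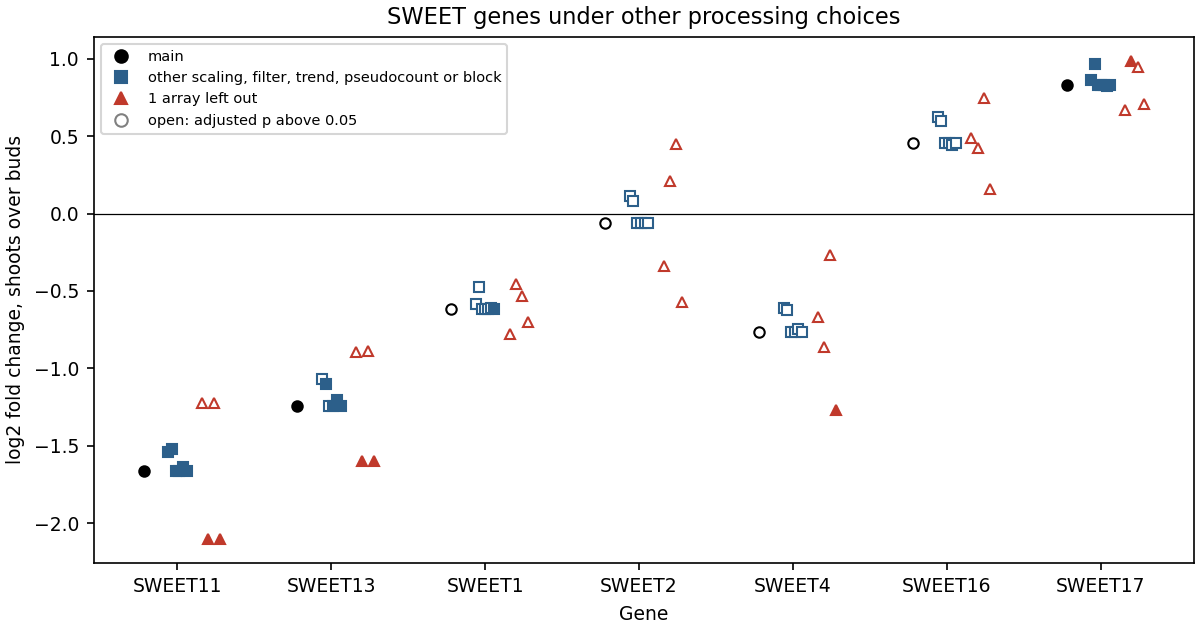
Log2 fold change of shoots over buds for the 7 tested SWEET genes as reported (black), under other scaling, filter, variance trend, pseudocount or pairing (blue) and with 1 array left out (red); open symbols have an adjusted p above 0.05. SWEET11, SWEET13, SWEET1, SWEET4, SWEET16 and SWEET17 keep their sign in all settings shown, and SWEET2 lies on either side of 0.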

How the data were processed

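Intensity values, 1 per probe set and array on a linear scale, were deposited by the authors. The software was MAS5 with GCOS, per the submitters' processing notes, which name no version. After trimming 2% of probe sets at each end, every array averaged 100.01, so the deposited arrays share 1 scaling target and differences in the amount of RNA per cell are not visible. Detection calls were not used, and 2 arrays per group limit the precision.

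The 64 control probe sets were left out. Probe sets were tested if their log2 signal, averaged over all 4 arrays, fell in the upper 60% of the other 22746, which left 13648. Log2 signals of shoots and buds were compared without a pseudocount by limma 3.58.1 (R 4.3.3; lmFit, then eBayes with trend on intensity), and p-values were adjusted by the Benjamini-Hochberg method over all 13648. A fold change is a ratio of geometric means, whereas values per array are linear signals. The fit was tested on simulated data, where the share of false calls was above the nominal threshold and many of the smallest changes put in were missed.

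Names came from the platform annotation through gene IDs to the TAIR10.1 gene set: 13513 probe sets had 1 gene, of which 13436 matched a current locus, 503 had several and 8730 were not listed. The members and gene lists were chosen with earlier results of these data known. Lists of green tissue, xylem and meristem (UFO) genes were added once the annotation's coverage was known; 2 further added lists, of phloem and epidermis, held no measured locus. Names follow a written rule: every measured SWEET gene, the loci past the threshold in each other list (or the largest change where none passed), and the 3 nearest patterns. TMT1, TMT3, AT5G17010 and further marker genes were singled out after their values were seen. Sequences and promoter motifs are not analysed here. Alternatives were quantile or median scaling, 2 other filters, no variance trend, a pseudocount of 0.910, a replicate block and each array left out.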

Additional observations from a re-analysis of the deposited data

How the results depend on the processing

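Of the SWEET genes, 1 was higher and 2 were lower as reported. The number lower was 1 with quantile normalization or no filter, where SWEET13 was lost, and 0 when only the upper 40% of probe sets was kept, which left 2 of the members (SWEET1 and SWEET17) in the test. With 1 array left out, the number higher ranged from 0 to 1 and the number lower from 0 to 3; both were 0 without bud array 1 or shoot array 1. The log2 fold change of SWEET2 was 0.11 with quantile normalization, 0.078 with equal medians and −0.57 to 0.45 with 1 array left out, against −0.06 as reported. The ranges with 1 array left out were −1.53 to 0.23 for SFP1 and −1.04 to 0.30 for AT1G34580, against −0.65 and −0.37, with the highest value of all 3 without shoot array 1. Of the other sugar genes, 0 to 2 were lower with 1 array left out. Over all tested probe sets, leaving out 1 array gave 230 to 1181 higher and 432 to 1468 lower, lowest without shoot array 1; 944 were lower without bud array 1. The cause of these differences was not tested.

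Whether equal replicate numbers pair the arrays is not given. Deviations of equally numbered arrays from their group means correlated at 0.225 across probe sets, over only 2 pairs. With the replicate number as a block, 2109 probe sets were higher and 2548 lower, SWEET1 passed too (adjusted p = 0.0314, giving 3 SWEET genes lower), and 2 of the other sugar genes were lower.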
